A study of Rattus norvegicus with 17 samples.

Results

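Ventricular myocytes isolated from newborn Sprague-Dawley rats were cultured with 10% plasma of people with kidney failure (uremic plasma) collected before nocturnal hemodialysis, or with control plasma. In nocturnal hemodialysis (NHD) the blood is cleaned through the night, over more hours than in daytime dialysis. The groups were taken from the sample titles, of which 6 name plasma before NHD and 3 name control plasma, together 9 of the 17 arrays of the study. The remaining arrays, 6 of cultures with plasma from after NHD and 2 of cultures with phenylephrine, an alpha-adrenergic agonist, enter here only through the pooled estimate of the spread. All cultures are described as 5 days old, from heart tissue, and the labels name no genetic change and no further agent for either plasma group. The share of 10% is given for uremic plasma, and neither the share of control plasma nor the length of the exposure is stated. The samples are labelled as biological replicates, but nothing says that they came from separate cultures or plasma donors, so each p-value measures the spread between samples, which may be technical.

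Failing kidneys leave urea, phosphate, indole compounds, peptides and other solutes in the blood, and dialysis removes part of them. People with kidney failure often develop a thickened and fibrotic heart. Newborn rat ventricular myocytes beat in culture and answer growth signals by enlarging, typically with more natriuretic peptide and fetal contractile protein mRNA. They draw most of their energy from mitochondria, and a culture of them also holds some fibroblasts and other heart cells.

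RNA of each sample was hybridised to 1 Affymetrix array. The deposited values are log2 signals of 29214 probe sets after RMA, a procedure meant to make the overall distributions of the arrays alike. A difference of 1 therefore means a doubling of signal, and a level of one probe set cannot be set against that of another. For 14506 named genes the brightest probe set stood for the gene. A gene was called higher or lower where the adjusted p of the limma fit was under 0.05. Heart muscle genes gave a strong signal in every array, which as a level of single probe sets is no measure of purity. Tnnt2, the cardiac form of troponin T, lay between 13.39 and 13.55 with plasma before NHD and between 13.49 and 13.55 with control plasma, close to the upper end of the scale. Actc1, cardiac actin, lay between 13.85 and 14.02 with plasma before NHD and between 13.95 and 14.11 with control plasma. The haemoglobin gene Hbb stood at 6.56 to 7.06 with plasma before NHD, against 6.66 to 6.95 with control plasma. The leukocyte marker Ptprc stood at 4.95 to 5.83 with plasma before NHD, against 5.05 to 5.37 with control plasma.

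The cultures with plasma before NHD differed far more among themselves than the control cultures did. Over probe sets, the median SD was 0.249 log2 units for the 6 arrays before NHD and 0.139 for the 3 control arrays. The SD was larger before NHD for 77.7% of probe sets. Both values partly depend on group size, since 3 arrays give a lower median SD than 6 at equal spread. The root mean square SD, which depends less on group size, was 0.377 before NHD and 0.212 in control arrays. Replicate 6 was the most distant from the control cultures, with 2010 probe sets more than 1 log2 unit above the control mean and 1180 more than 1 unit below it. Replicate 5 was the nearest, with 67 above and 174 below. Each control array was set against the mean of the other control arrays. By that measure they had between 22 and 179 probe sets above and between 27 and 157 below. In the plot of principal components of these 9 arrays the first component, with 45.4% of the variance, placed replicate 5 at -40.7, among the control arrays at -50.1, -20.8 and -42.6. The other before NHD arrays lay between 4.96 and 69.5 on it. The second component, with 18.2% of the variance, held replicates 3 and 6 at 43.0 and 33.4 and replicate 4 at -47.0, while the control arrays lay between 1.83 and 3.88. After RMA the arrays still differed in the SD of all their log2 values. It was 2.37 in replicate 6, 2.27 in replicate 5 and 2.24 to 2.33 in the other before NHD arrays. In control replicates 1 to 3 it was 2.24, 2.32 and 2.25. A fit with this SD as an added term called 2 probe sets.

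**Figure D1:**
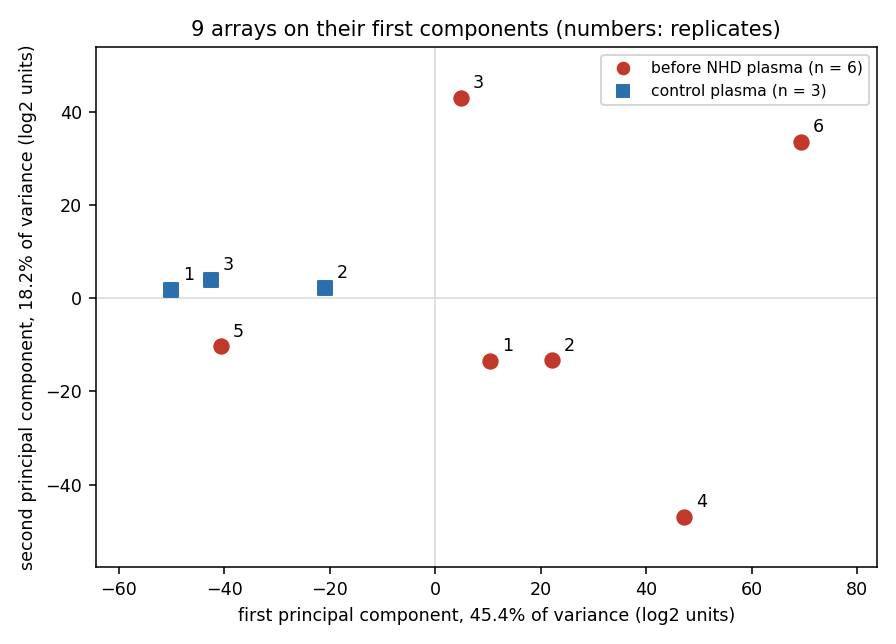
Principal components of all probe sets over the 9 arrays, with the share of variance on each axis, red for plasma before NHD and blue for control plasma, and replicate numbers beside the points. Before NHD replicate 5 lies among the control arrays on the first component, at -40.7, while the other before NHD arrays lie between 4.96 and 69.5.

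Postn and other matrix genes stood at the high end of the second component, so the fibroblast and matrix values below describe that component again. The mean level of 15 fibroblast markers was 9.18 in before NHD replicate 3 and 9.20 in replicate 6, between 6.73 and 7.22 in the other before NHD cultures, and between 7.74 and 7.87 in control cultures. Replicate 4, at the low end of the component, had a mean of 6.79, near those of replicates 2 and 5 (6.73 and 6.82). None of the 15 passed the test between the groups. Postn, the matrix protein periostin, had values of 10.96 and 10.90 in replicates 3 and 6 and of 7.01 to 7.93 in the other before NHD arrays, against 8.35, 8.88 and 8.60 in control arrays. In bulk RNA of a culture, fewer cells of a type and less RNA per cell cannot be told apart. A fit with the fibroblast mean as an added term, chosen after the data were seen, called 2347 probe sets, among them all of the 1439 called without it.

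In all, 847 of the 14506 genes differed between plasma before NHD and control plasma, which is 5.84%. Of these, 544 were higher (3.75%) and 303 lower (2.09%). Among all 29214 probe sets 1439 passed (4.93%), 840 higher (2.88%) and 599 lower (2.05%). The 6 before NHD values did not overlap the 3 control values for 1351 genes (9.31%), 649 of them higher (4.47%) and 702 lower (4.84%). Replicate 5 had the value nearest to the control mean for 682 of the 847 called genes, and replicate 6 the farthest for 398. These counts cover only genes called from the same values and were not made over all genes. Over all probe sets the median absolute difference from the control mean was 0.14 in replicate 5. It was 0.36 in replicate 6 and 0.22 to 0.28 in the other before NHD arrays. In the 544 genes that were higher, the median difference from the control mean was 0.26 in replicate 5 and between 0.60 and 1.10 in the other replicates. In the 303 lower genes it was -0.19 in replicate 5 and between -0.94 and -0.55 in the others.

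**Figure D2:**
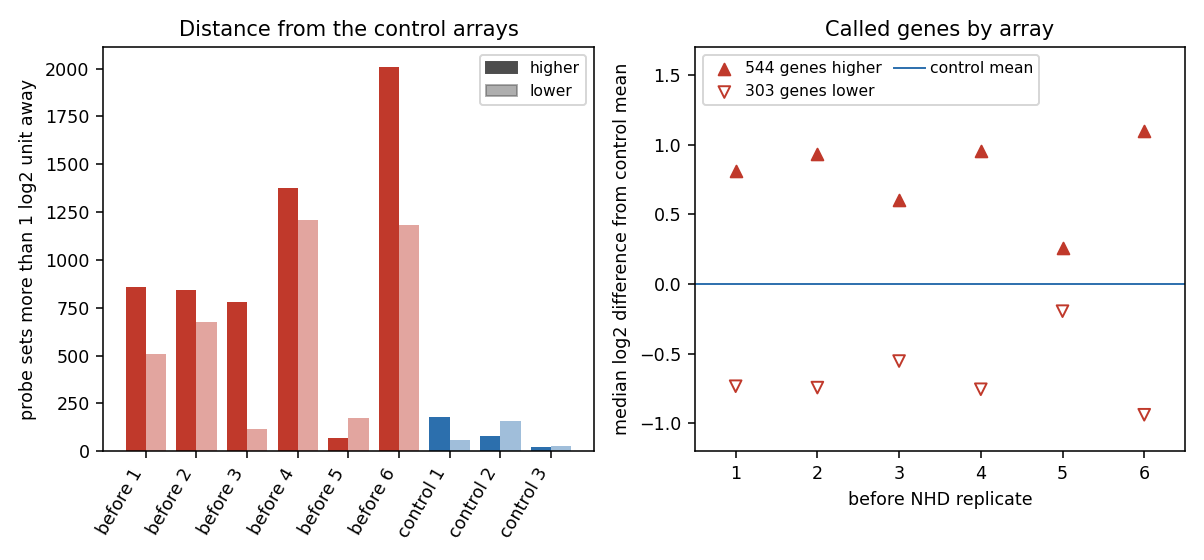
Left, the number of probe sets more than 1 log2 unit above (dark bars) or below (light bars) a mean of control arrays. For each before NHD array (red) it is the mean of all control arrays, and for each control array (blue) the mean of the others. Right, the median log2 difference from the control mean over the 544 genes called higher and the 303 called lower, for each before NHD replicate, with replicate 5 nearest to the control mean at 0.26 and -0.19.

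These calls rest on the spread pooled over the 4 groups of the study and on few control arrays. A limma fit of the 9 arrays alone called 0 probe sets, with 4831 at an unadjusted p under 0.05, and the pooled fit also called 0 without control replicate 1 (4470 unadjusted) or control replicate 3 (4762 unadjusted). Without before NHD replicate 5 it called 5101, 2271 higher and 2830 lower, and without replicates 2, 6 and 1 it called 255, 426 and 675. Of the 106 called genes named here 0 kept their call in the fit of the 9 arrays or without control replicate 1 or 3, 35 kept it without before NHD replicate 2, and 106 without replicate 5.

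The largest decrease of any called gene was that of a histone gene, and several other histone genes fell with it. Histones package DNA, and the genes for their replication-dependent forms are normally read in cells that copy their DNA. Of 29 measured histone genes 11 were lower with plasma before NHD (37.9%, against 2.09% of all genes) and 0 were higher, with a median log2 difference of -0.55, against -0.05 over all genes. H2ac25, an H2A histone, had a lowest value of 7.29, a median of 7.70 and a highest value of 9.09 with plasma before NHD, against 10.03, 9.94 and 10.14 with control plasma. The groups did not overlap, and the highest before NHD value, that of replicate 5, still lay below the lowest control value. The log2 difference was -2.22 (SE 0.34, adjusted p = 0.015).

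Hist1h2af, another H2A gene, had values of 7.19, 7.52 and 8.92 (lowest, median, highest) with plasma before NHD, against 9.30, 8.95 and 9.29 with control plasma, a difference of -1.45 (SE 0.26, adjusted p = 0.0175). The H2B gene Hist3h2ba had values of 7.20, 7.56 and 8.55 with plasma before NHD, against 8.87, 8.83 and 8.89 with control plasma (-1.20, SE 0.21, adjusted p = 0.0163). The H4 gene Hist1h4b had values of 9.63, 10.50 and 11.71 with plasma before NHD, against 11.96, 11.89 and 11.92 with control plasma (-1.36, SE 0.35, adjusted p = 0.0378). These were, with H2ac25, the 4 histone genes that fell without overlap of the groups. In H2bc18, an H2B gene, replicate 5 (9.99) overlapped the control values of 10.16, 9.71 and 10.15, while the other before NHD values ran up to 8.84 (difference -1.19, SE 0.27, adjusted p = 0.0279). The linker histone gene H1f5 fell by 0.96 (SE 0.25, adjusted p = 0.041), and H2bc12, Hist1h2an, H2aj, Hist1h2ail1 and H2ac1 fell by 0.58 to 1.20. The mean difference of the 29 genes from the control cultures was -0.02 in replicate 5 and between -0.74 and -0.45 in the other before NHD replicates.

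Not every histone gene had a lower mean. H2ac21, an H2A gene, had values of 7.36, 8.03 and 9.63 with plasma before NHD, against 6.99, 7.36 and 7.02 with control plasma (1.20, SE 0.41, adjusted p = 0.0881). H4c14, an H4 gene, had 8.37, 9.81 and 11.42 with plasma before NHD, against 8.19, 9.09 and 8.28 with control plasma (1.40, SE 0.49, adjusted p = 0.0937). Neither passed, and both overlapped. H2ax, the variant that is marked at DNA breaks, had a difference of -0.55 (SE 0.17, adjusted p = 0.0675). Histone genes are near copies of each other, so their probes may read more than 1 of them, and the number of separately changed genes is uncertain.

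Promoters are shown for 6 histone genes, because many histone genes share short promoter elements and the genes that fell differ in them. They are the 4 histone genes with the smallest p, Hist1h4b as the remaining gene that fell without overlap, and H2ac21, whose mean was higher without passing. The sequences come from RefSeq (GRCr8) and run 5′ to 3′ from 250 bases before to 50 after the annotated start. Capitals mark the octamer ATTTGCAT and the pentamer CCAAT, each on either strand. H2ac25 lies at chr10:44233033-44233332 on the plus strand and Hist3h2ba at chr10:44225171-44225470 on the plus strand. Hist1h2af lies at chr17:41807604-41807903 on the minus strand, H2bc18 at chr2:186526947-186527246 on the plus strand, Hist1h4b at chr17:47175996-47176295 on the plus strand and H2ac21 at chr2:186467974-186468273 on the plus strand.
H2ac25: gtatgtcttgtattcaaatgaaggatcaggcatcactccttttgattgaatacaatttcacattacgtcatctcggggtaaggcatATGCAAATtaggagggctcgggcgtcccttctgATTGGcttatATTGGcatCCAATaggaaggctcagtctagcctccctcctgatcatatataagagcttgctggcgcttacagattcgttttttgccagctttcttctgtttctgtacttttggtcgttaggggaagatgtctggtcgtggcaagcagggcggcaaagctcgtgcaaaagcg
Hist3h2ba: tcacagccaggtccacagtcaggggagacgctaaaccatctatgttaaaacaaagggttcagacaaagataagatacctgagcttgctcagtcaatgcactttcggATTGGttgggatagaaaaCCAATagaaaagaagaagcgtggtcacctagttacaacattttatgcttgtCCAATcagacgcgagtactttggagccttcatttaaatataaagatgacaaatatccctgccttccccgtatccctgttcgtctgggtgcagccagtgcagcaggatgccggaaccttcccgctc
Hist1h2af: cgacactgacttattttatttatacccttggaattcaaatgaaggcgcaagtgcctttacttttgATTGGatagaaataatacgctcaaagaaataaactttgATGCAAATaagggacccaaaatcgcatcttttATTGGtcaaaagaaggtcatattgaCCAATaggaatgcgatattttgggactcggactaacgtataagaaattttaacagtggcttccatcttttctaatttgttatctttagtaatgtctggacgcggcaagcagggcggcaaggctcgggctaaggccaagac
H2bc18: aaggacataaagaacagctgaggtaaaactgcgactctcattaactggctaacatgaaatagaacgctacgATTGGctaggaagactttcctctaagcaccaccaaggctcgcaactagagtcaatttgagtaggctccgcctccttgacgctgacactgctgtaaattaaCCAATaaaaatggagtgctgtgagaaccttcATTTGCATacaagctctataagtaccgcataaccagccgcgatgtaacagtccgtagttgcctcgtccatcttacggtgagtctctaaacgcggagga
Hist1h4b: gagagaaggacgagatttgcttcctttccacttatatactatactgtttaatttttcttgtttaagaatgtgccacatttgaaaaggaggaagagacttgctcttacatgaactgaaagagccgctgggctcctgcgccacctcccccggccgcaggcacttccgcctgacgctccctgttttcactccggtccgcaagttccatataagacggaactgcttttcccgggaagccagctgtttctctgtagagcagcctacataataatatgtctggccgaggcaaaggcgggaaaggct
H2ac21: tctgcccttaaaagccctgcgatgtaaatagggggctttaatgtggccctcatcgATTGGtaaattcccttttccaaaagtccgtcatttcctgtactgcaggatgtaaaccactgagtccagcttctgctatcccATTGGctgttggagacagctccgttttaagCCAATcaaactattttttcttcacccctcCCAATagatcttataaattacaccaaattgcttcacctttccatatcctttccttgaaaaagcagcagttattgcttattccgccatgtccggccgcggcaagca

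The octamer stood in 9 of 28 histone promoters held in the RefSeq table (32.1%), against 1.64% of all 27457 promoters of the same length. It stood in 6 of the 11 histone genes that fell (54.5%) and in 3 of the 17 that did not pass (17.6%). The pentamer CCAAT stood in 26 of the 28 (92.9%), against 37.7% of all promoters, and its longer form CCAATCA in 20 (71.4%), against 7.31%. H2ac25 and Hist1h2af each held 1 octamer and 3 pentamers, and H2bc18 held 1 octamer and 2 pentamers. Hist3h2ba held 3 pentamers without an octamer, Hist1h4b neither motif, and H2ac21 4 pentamers without an octamer, so that genes that fell are found with and without the octamer. Of the 28 genes 14 lie on chromosome 17. The windows of H2ac25 and H2bu1 share 283 bases and those of H2bc1 and H2ac1 share 261, so that their matches are not separate. Among the 303 genes that fell, of which 253 had a promoter in the table, the octamer stood in 12 (4.74%) and CCAATCA in 44 (17.4%), against 1.62% and 8.66% of measured genes. Without the 11 histone genes the octamer stood in 6 of 242 (2.48%) and CCAATCA in 36 (14.9%). The ETS motif CCGGAAGT stood in 33 of the 253 promoters of genes that fell (13.0%). It stood in 17 of 458 promoters of genes that rose (3.71%), against 5.93% of measured genes. These were all descriptions of letters in a window on either strand, with CCAAT contained in CCAATCA.

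**Figure D3:**
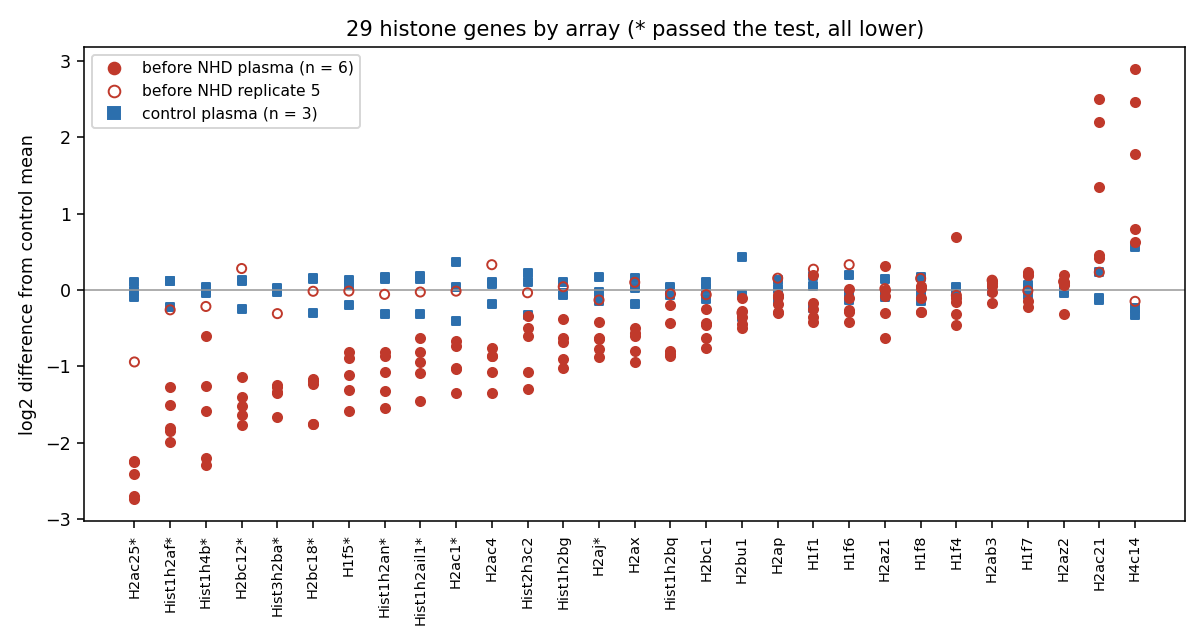
Log2 difference of each measured histone gene from the mean of the control arrays, with a point for every before NHD array (red, open for replicate 5) and control array (blue squares), an asterisk for genes that passed, ordered by the group difference. Most before NHD points of the 11 genes called lower lie below the control points, and those of replicate 5 lie nearest to them, as for H2ac25.

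The genes with the smallest p-values rose or fell in every before NHD culture, replicate 5 included. Cox7a2l, which helps to join respiratory complexes into larger assemblies, had values of 10.90, 11.33 and 11.72 (lowest, median, highest) with plasma before NHD, against 10.17, 10.32 and 10.26 with control plasma. It rose by 1.13 log2 units (SE 0.16, adjusted p = 0.0136), and replicate 5 held its lowest value. Myh3, the embryonic form of the myosin heavy chain, had values of 9.51, 9.82 and 10.69 with plasma before NHD, against 8.40, 8.50 and 8.47 with control plasma. It rose by 1.49 (SE 0.24, adjusted p = 0.0158), and all 6 before NHD values lay above every control value.

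Men1, which encodes the nuclear scaffold menin, had values of 7.56, 8.67 and 8.78 with plasma before NHD, against 7.03, 7.35 and 7.09 with control plasma (1.30, SE 0.20, adjusted p = 0.015). The ciliary neurotrophic factor gene Cntf had values of 7.28, 7.38 and 7.74 with plasma before NHD, against 6.73, 6.67 and 6.63 with control plasma (0.77, SE 0.12, adjusted p = 0.015). Neither gene overlapped between the groups. Chm, an escort of Rab proteins, rose by 0.73 (SE 0.11, adjusted p = 0.0136), and the nuclear pore gene Ndc1 by 0.97 (SE 0.14, adjusted p = 0.0142). Emc1, which helps to insert membrane proteins, rose by 1.14 (SE 0.19, adjusted p = 0.0163). Pi4ka, a kinase of membrane inositol lipids, rose by only 0.51 (SE 0.08, adjusted p = 0.0163), with before NHD values between 9.16 and 9.45 and control values between 8.73 and 8.91.

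Among the genes that fell with the smallest p was Chn1, a signalling protein that switches off Rac. Its values were 9.20, 9.92 and 10.34 with plasma before NHD, against 11.17, 10.97 and 11.24 with control plasma (-1.22, SE 0.19, adjusted p = 0.0158). Trim32, a ubiquitin ligase of muscle, had values of 7.36, 7.65 and 8.30 with plasma before NHD, against 8.69, 8.55 and 8.59 with control plasma (-0.90, SE 0.15, adjusted p = 0.0163). Both fell without overlap, and so did Wdr5b (-0.87, SE 0.15), Gins3, a part of the DNA replication helicase (-0.69, SE 0.13), and the membrane protein gene Tmem184c (-0.59, SE 0.09).

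The largest increases were less even between cultures. The mitochondrial ribosome gene mrpl11 had values of 9.72, 10.28, 9.16, 9.99, 7.04 and 10.53 in before NHD replicates 1 to 6, against 6.66, 7.44 and 6.97 in control cultures. Replicate 5 lay within the control range and the other 5 values above it, and the mean difference was 2.43 (SE 0.52, adjusted p = 0.0249). Ptdss2, which makes phosphatidylserine, was likewise highest in replicate 6 and lowest in replicate 5, with 9.07, 9.69, 8.20, 9.81, 6.88 and 10.52 before NHD, against 6.69, 6.80 and 6.96 with control plasma (2.21, SE 0.53, adjusted p = 0.0324). Hus1, part of a DNA damage clamp, had values of 7.08, 9.19 and 10.17 with plasma before NHD, against 6.66, 7.01 and 6.73 with control plasma (2.19, SE 0.47, adjusted p = 0.0248). In each of these 3 genes replicate 5 was the lowest of the before NHD arrays.

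Myzap, a protein of the intercalated disc that joins heart cells, had values of 9.77, 11.20 and 11.58 with plasma before NHD, against 8.98, 9.05 and 9.10 with control plasma (1.80, SE 0.34, adjusted p = 0.0193). Corin, the protease that activates atrial natriuretic peptide, had values of 11.08, 10.18, 8.50, 8.21, 7.91 and 9.79 in before NHD replicates 1 to 6, against 7.34, 7.45 and 7.16 in control cultures (1.96, SE 0.55, adjusted p = 0.0485). Kdr, a receptor for vascular endothelial growth factor, had values of 10.05, 9.98, 8.17, 7.58, 7.80 and 9.01 before NHD, against 6.66, 7.39 and 6.87 with control plasma (1.79, SE 0.49, adjusted p = 0.046). Corin and Kdr were highest in replicates 1, 2 and 6, and all 6 values of each lay above the controls. Of 14 endothelial markers Kdr was the only one that passed, and the marker Pecam1 lay between 5.84 and 7.0 with plasma before NHD and between 6.37 and 6.67 with control plasma.

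The largest decreases were also uneven between cultures. Rab39a, a small GTPase of membrane traffic, had values of 4.99, 6.42 and 8.71 with plasma before NHD, against 9.13, 8.96 and 9.06 with control plasma (-2.16, SE 0.59, adjusted p = 0.0453). Zfp458, a zinc finger gene, had 7.27, 8.07 and 9.54 with plasma before NHD, against 10.35, 10.17 and 10.30 with control plasma (-1.95, SE 0.40, adjusted p = 0.0226). Ddias, an inhibitor of cell death after DNA damage, had 9.13, 8.90, 10.26, 8.16, 11.20 and 7.97 in before NHD replicates 1 to 6, against 11.15, 11.16 and 11.19 in control cultures (-1.90, SE 0.50, adjusted p = 0.0419). In Ddias replicate 5 lay above all control values and the other before NHD values below them. Reg3g, a secreted lectin, was lower by 1.78 log2 units with an SE of 0.47 and overlapped the controls.

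Among myocyte genes the changes were mostly increases. Of 21 sarcomere genes 4 rose and 0 fell (19.0%, median 0.27), of 19 ion channel and pump genes 4 rose and 0 fell (21.1%, median 0.42), and of 19 calcium handling genes 2 rose (10.5%, median 0.39). Over all genes 3.75% rose and 5.84% passed in either direction. Without replicate 5, where 19.6% of all genes passed and 10.1% rose, 8 sarcomere genes and 6 channel genes rose and 0 fell. In that fit 6 calcium handling genes rose and 1 fell. It was singled out after the data were seen and gave the largest counts. With each of the 9 arrays left out in turn, 0 to 8 sarcomere genes rose. For channel genes and for calcium handling genes the range was 0 to 6. Myh6, the faster adult myosin heavy chain, had values of 12.55, 12.80 and 13.07 with plasma before NHD, against 12.13, 12.11 and 12.17 with control plasma. It rose by 0.67 (SE 0.14, adjusted p = 0.0248) with no overlap, and replicate 5, at 12.70, lay amid the other before NHD values. Nexn, a Z-disc protein, had values of 11.29, 11.75 and 12.32 with plasma before NHD, against 10.70, 10.52 and 10.84 with control plasma (1.07, SE 0.18, adjusted p = 0.0163). Myl7, the atrial light chain, had values of 10.37, 10.91 and 11.88 with plasma before NHD, against 9.62, 9.64 and 9.80 with control plasma (1.36, SE 0.32, adjusted p = 0.0315). The fourth was Mybpc3, a myosin-binding protein (0.77, SE 0.19, adjusted p = 0.0345).

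In calcium handling Ryr2, the release channel of the sarcoplasmic reticulum, had values of 12.05, 11.66, 10.74, 12.24, 10.73 and 12.02 in before NHD replicates 1 to 6, against 10.34, 10.53 and 10.36 in control cultures. It rose by 1.17 (SE 0.29, adjusted p = 0.0345), with replicates 3 and 5 just above the controls. Cacnb2, a subunit of the calcium channel, rose by 0.81 (SE 0.20, adjusted p = 0.0345), and Atp2a2, the calcium pump, had a difference of 0.45 (SE 0.16, adjusted p = 0.102). Among the channels, Kcnj2, the inward rectifier that sets the resting potential, had values of 8.38, 9.10 and 9.55 with plasma before NHD, against 7.78, 7.97 and 7.87 with control plasma (1.14, SE 0.25, adjusted p = 0.0256). The potassium channel gene Kcnd3 rose by 1.18 (SE 0.27, adjusted p = 0.0294), and Kcnj5, whose product opens on vagal signals, by 1.32 (SE 0.32, adjusted p = 0.0322). The pacemaker channel gene Hcn4 rose by 0.66 (SE 0.17, adjusted p = 0.0361).

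Of 21 hypertrophy markers Myh6 and Corin, both given above, rose and 0 fell (9.52%, against 5.84% of all genes, median 0.27). The natriuretic peptide genes did not pass. Nppa, atrial natriuretic peptide, lay between 13.66 and 13.85 with plasma before NHD and between 13.79 and 13.80 with control plasma (-0.02, SE 0.07, adjusted p = 0.865). Nppb, the B-type peptide, had values of 12.36, 12.90 and 13.66 with plasma before NHD, against 13.28, 12.81 and 13.33 with control plasma (-0.17, SE 0.23, adjusted p = 0.68). Acta1, skeletal actin, had values of 12.13, 12.78 and 13.57 with plasma before NHD, against 13.27, 13.02 and 13.28 with control plasma (-0.36, SE 0.23, adjusted p = 0.338). Each of these 3 overlapped between the groups. Myh7, the slower myosin heavy chain, had a difference of 0.27 (SE 0.09, adjusted p = 0.0873), and its before NHD values of 12.82 to 13.20 lay above the control values of 12.62 to 12.71. Of 17 cardiac transcription factor genes 0 passed, with 15 of the differences above 0 and a median of 0.33. Among them Gata4 had a difference of 0.84 (SE 0.30, adjusted p = 0.102).

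Of 22 genes of adrenergic, angiotensin and endothelin signalling 2 rose and 0 fell (9.09%, against 5.84% of all genes, median 0.25). Adra1a, the alpha-1A adrenergic receptor, had values of 9.67, 9.91, 7.79, 9.71, 8.07 and 9.73 in before NHD replicates 1 to 6, against 7.57, 7.82 and 7.35 in control cultures (1.56, SE 0.39, adjusted p = 0.0358). Replicate 3 lay below the highest control value, replicate 5 just above it, and the other 4 well above it. Adcy6, an adenylyl cyclase of heart muscle, rose by 0.65 (SE 0.17, adjusted p = 0.0434). The peptide gene Edn1, endothelin-1, had values of 7.90, 6.94, 9.57, 11.72, 7.36 and 9.27 before NHD, against 8.79, 8.85 and 8.84 with control plasma. Its mean difference was -0.03 (SE 0.89, adjusted p = 0.985), with replicate 4 far above and replicates 1, 2 and 5 below the control cultures.

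**Figure D4:**
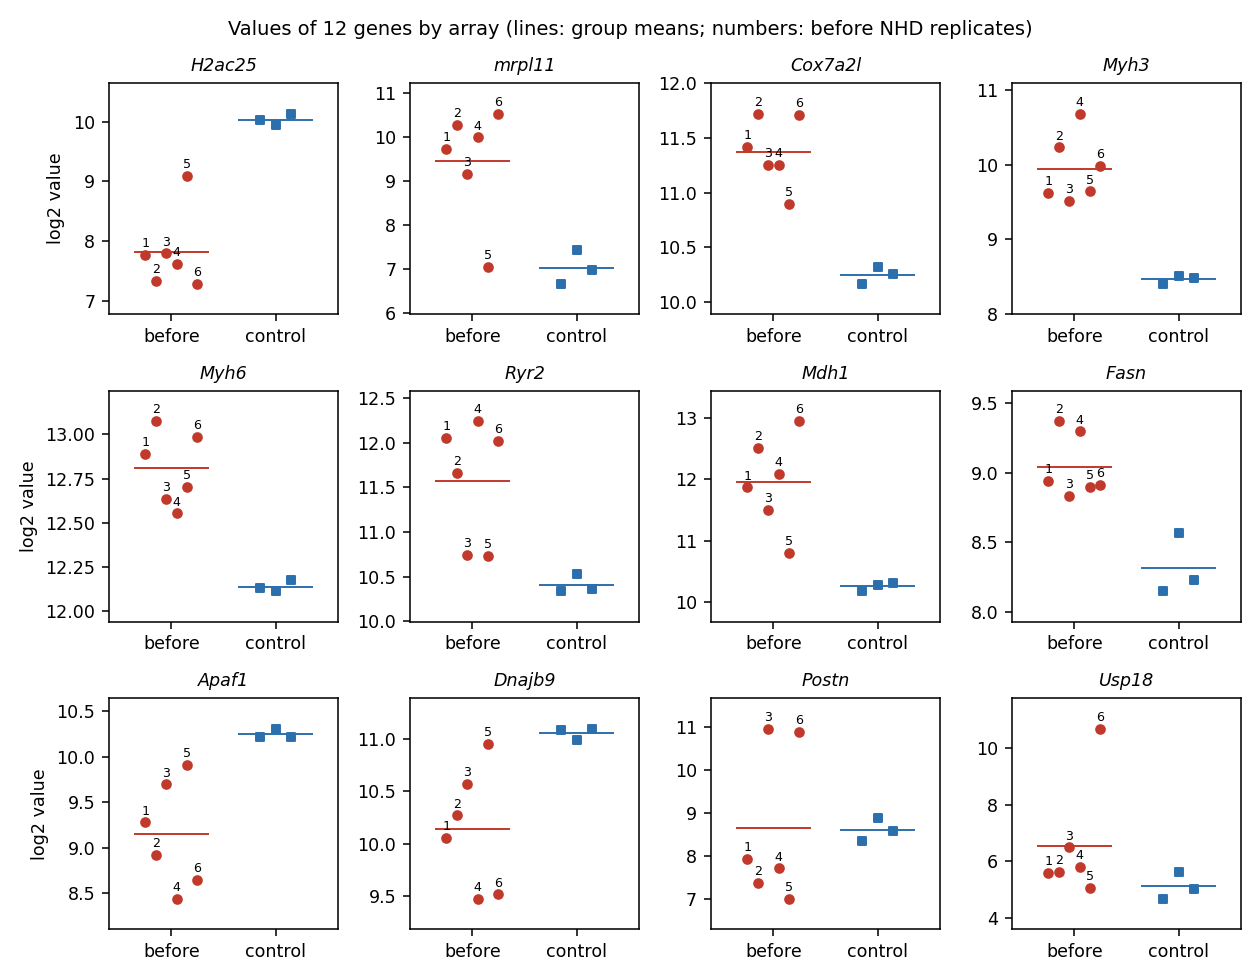
Log2 values of 12 genes in each before NHD array (red) and each control array (blue), with replicate numbers beside the before NHD points and a bar at each group mean. Myh3 and Cox7a2l keep the groups apart in every array, mrpl11 has replicate 5 within the control range, and Postn and Usp18 split the before NHD arrays.

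Genes of mitochondrial protein synthesis and fuel oxidation were higher where they changed, with 1 exception given below. Over all genes 3.75% rose. Of 42 mitochondrial ribosome genes 12 rose and 0 fell (28.6%, median 0.32), and of 27 genes of the TCA cycle and pyruvate dehydrogenase 7 rose and 0 fell (25.9%, median 0.35). Of 37 respiratory chain and ATP synthase genes 3 rose (8.11%, median 0.21). Without replicate 5, where 10.1% of all genes rose, the counts were 16, 9 and 8. With each of the 9 arrays left out in turn they ran from 0 to 16, from 0 to 9 and from 0 to 8. The mean difference of the mitochondrial ribosome genes from the control mean was 0.08 in replicate 5, 0.19 in replicate 3 and between 0.32 and 0.75 in the others. The control arrays themselves ran from -0.09 to 0.17, so that replicate 5 lay within their range and replicate 3 just above it.

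Mrps31, of the small subunit, had values of 8.92, 9.22 and 9.53 with plasma before NHD, against 8.44, 8.63 and 8.45 with control plasma (0.69, SE 0.11, adjusted p = 0.0163). Mrps26 rose by 1.30 (SE 0.27, adjusted p = 0.0226) and Mrpl19, of the large subunit, by 1.63 (SE 0.39, adjusted p = 0.0319), both with overlap of the groups. In the TCA cycle list Mdh1, the malate dehydrogenase of the cytosol, had values of 10.81, 11.98 and 12.94 with plasma before NHD, against 10.18, 10.29 and 10.31 with control plasma. It rose by 1.69 (SE 0.33, adjusted p = 0.0201), and replicate 6 held the highest value. Dlat, the core of pyruvate dehydrogenase, had values of 10.21, 11.10 and 11.82 with plasma before NHD, against 9.78, 9.74 and 9.77 with control plasma (1.34, SE 0.25, adjusted p = 0.0176). Aco1, an aconitase that also senses iron, rose by 1.11 (SE 0.21, adjusted p = 0.0193), and Idh2, the mitochondrial isocitrate dehydrogenase, by 0.73 (SE 0.20, adjusted p = 0.0464). Citrate synthase, Cs, had values of 12.37, 12.52 and 12.95 with plasma before NHD, against 12.12, 12.04 and 12.10 with control plasma (0.49, SE 0.12, adjusted p = 0.037).

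In the respiratory chain Uqcrc2, a core protein of complex III, had values of 11.44, 12.25 and 12.79 with plasma before NHD, against 11.14, 11.24 and 11.16 with control plasma (0.99, SE 0.22, adjusted p = 0.0257). Ndufs1, of complex I, rose by 0.57 (SE 0.16, adjusted p = 0.048), and Atp5f1d, of the ATP synthase, by 0.66 (SE 0.18, adjusted p = 0.0479). Replicate 5 had the lowest before NHD value of Uqcrc2 and of Atp5f1d. Of 28 genes of mitochondrial import and proteases 1 rose and 1 fell (7.14%, against 5.84% of all genes). The import chaperone Timm9 rose by 0.57 (SE 0.15, adjusted p = 0.0384) and the stress-sensing protease Oma1 fell by 0.58 (SE 0.16, adjusted p = 0.0472).

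Fatty acid oxidation genes had the highest median of the metabolic lists, 0.53, but only 1 of 35 passed (2.86%, against 5.84% of all genes). That gene was Ppargc1b, a coactivator of mitochondrial genes, with values of 9.68, 10.33 and 10.52 with plasma before NHD, against 9.19, 9.48 and 9.18 with control plasma (0.91, SE 0.16, adjusted p = 0.0171). The list's mean difference ran from 0.07 in replicate 5 to 1.17 in replicate 6. Acadvl, the first enzyme of long-chain oxidation, had values of 10.30, 11.32 and 12.15 with plasma before NHD, against 10.36, 10.41 and 10.27 with control plasma (1.02, SE 0.29, adjusted p = 0.0512). Cpt1b, which admits long-chain fatty acids to muscle mitochondria, had values of 11.41, 11.62 and 12.51 with plasma before NHD, against 11.31, 11.17 and 11.28 with control plasma (0.55, SE 0.21, adjusted p = 0.122).

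Of 20 genes of fatty acid synthesis and desaturation 4 rose and 0 fell (median 0.35). Fasn, fatty acid synthase, had values of 8.83, 8.93 and 9.37 with plasma before NHD, against 8.15, 8.57 and 8.23 with control plasma (0.73, SE 0.14, adjusted p = 0.0201). Acaca, which makes malonyl-CoA, had values of 7.78, 7.88 and 8.10 with plasma before NHD, against 7.42, 7.51 and 7.33 with control plasma (0.50, SE 0.11, adjusted p = 0.0248). In both genes replicate 5 lay amid the other before NHD cultures. Acacb, the form of that enzyme at the mitochondrial surface, rose by 1.39 (SE 0.38, adjusted p = 0.0466), and Fads2, a desaturase, by 0.99 (SE 0.17, adjusted p = 0.0163). Of 21 genes of cholesterol synthesis, uptake and efflux 0 passed.

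Of 26 genes of phospholipid and GPI anchor synthesis 4 rose and 0 fell (15.4%, median 0.19), among them Ptdss2, given above. Pigq, which helps to build the lipid anchors of surface proteins, rose by 1.87 (SE 0.39, adjusted p = 0.0248), and Pigk, which attaches them, by 0.93 (SE 0.19, adjusted p = 0.0233). Of 33 genes of glycolysis, lactate and hypoxia 2 rose and 0 fell (6.06%, against 5.84% of all genes, median 0.20). Slc16a3, a lactate exporter, had values of 9.42, 10.18 and 10.41 with plasma before NHD, against 8.54, 8.63 and 8.47 with control plasma (1.46, SE 0.29, adjusted p = 0.0201). Hexokinase 1, Hk1, rose by 0.51 (SE 0.14, adjusted p = 0.0472). Of 21 genes of the insulin and IGF axis 2 rose and 0 fell (9.52%, against 5.84% of all genes, median 0.32). Igfbp5, an IGF-binding protein, had values of 7.0, 8.03 and 8.99 with plasma before NHD, against 6.60, 6.77 and 6.69 with control plasma (1.29, SE 0.31, adjusted p = 0.032). The kinase gene Akt1 rose by 0.69 (SE 0.17, adjusted p = 0.0377).

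**Figure D5:**
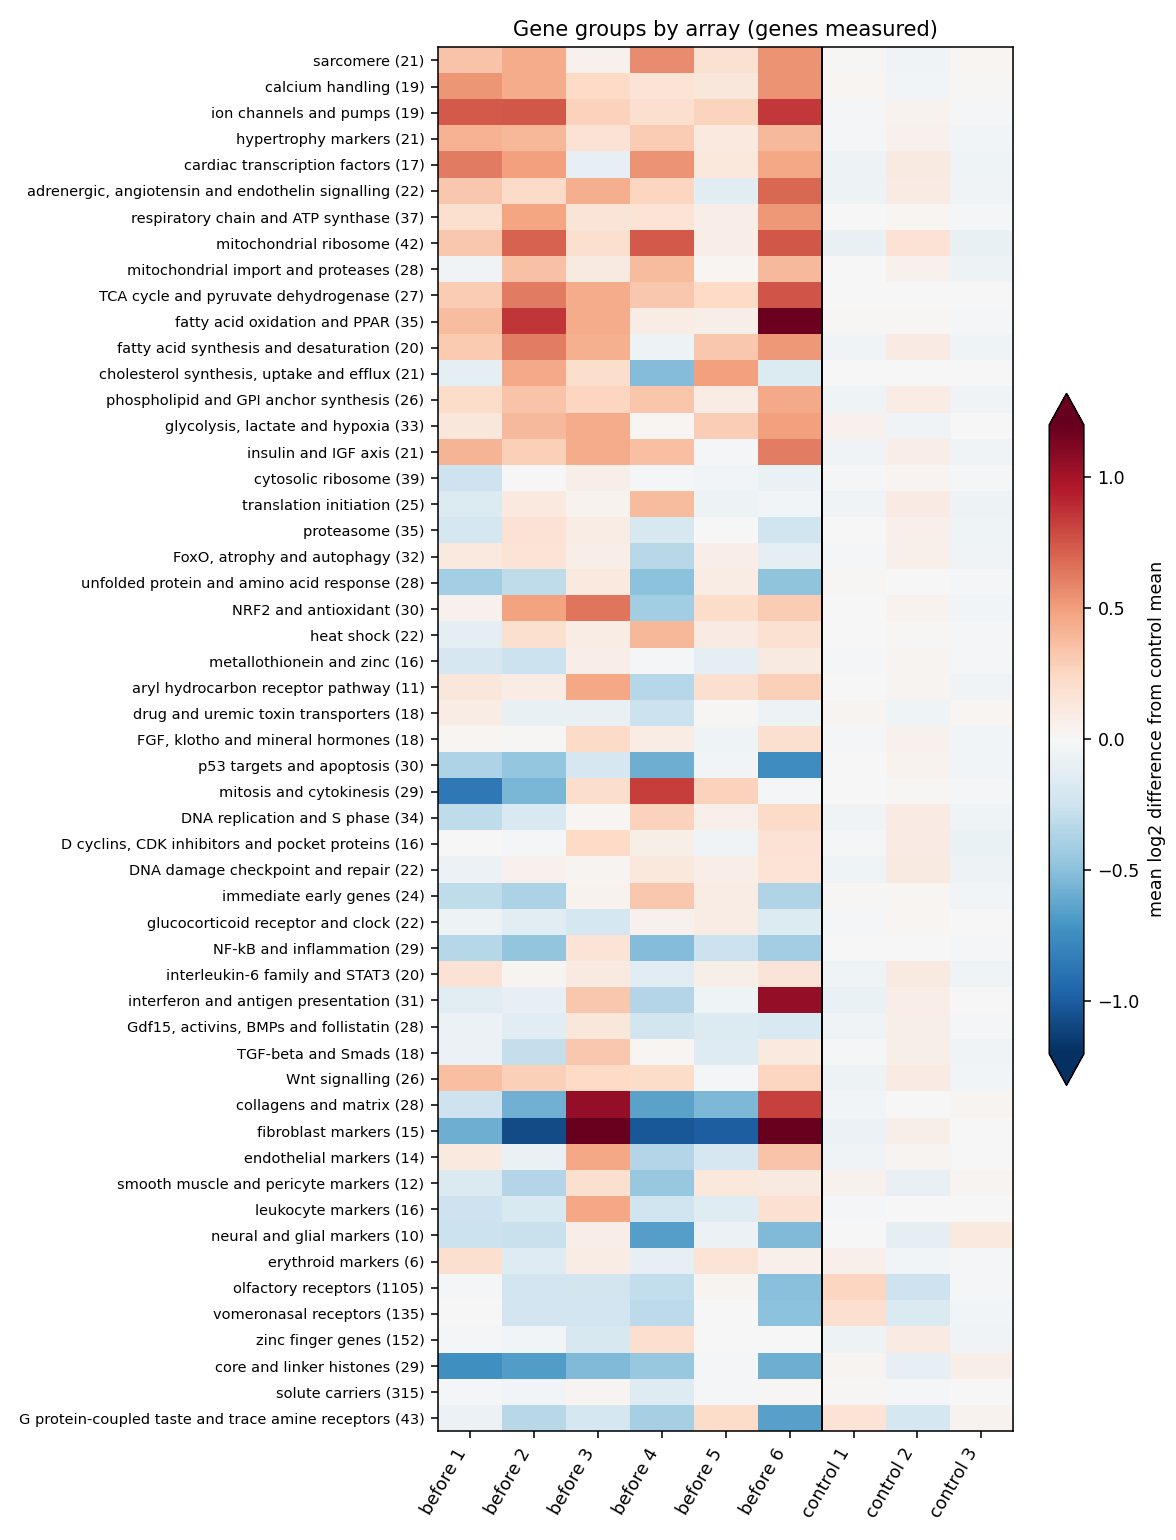
Mean log2 difference from the control mean for each gene list (rows) in each before NHD array and each control array (columns), in a colour scale from blue (lower) to red (higher). Metabolic and myocyte lists are above the control mean in at least 5 of 6 before NHD arrays. The cholesterol list is the exception, with 3 of 6. Some of these values lie within the control range, as for mitochondrial import in replicate 5 (0.02, control replicate 2 at 0.05). Histones are below the controls except in replicate 5 (-0.02), and fibroblast, matrix, mitosis and interferon lists differ between before NHD arrays.

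Of 30 p53 target and apoptosis genes 3 fell and 0 rose (10.0%, against 5.84% of all genes, median -0.42). Without replicate 5, where 9.51% of all genes fell, the counts were 14 and 1. With each of the 9 arrays left out in turn, 0 to 14 fell and 0 to 1 rose. Apaf1, which assembles the caspase-activating apoptosome, had values of 8.44, 9.10 and 9.91 with plasma before NHD, against 10.22, 10.31 and 10.22 with control plasma (-1.10, SE 0.25, adjusted p = 0.0295). Gadd45b, a stress-induced growth arrest gene, had values of 9.29, 9.72 and 10.24 with plasma before NHD, against 10.74, 10.37 and 10.65 with control plasma (-0.84, SE 0.22, adjusted p = 0.0407). Neither overlapped between the groups, and the third gene was Ddias. The cell cycle inhibitor Cdkn1a had values of 11.93, 12.74 and 13.29 with plasma before NHD, against 13.39, 13.42 and 13.25 with control plasma (-0.68, SE 0.22, adjusted p = 0.082). The death effector Bax had a difference of -1.05 (SE 0.32, adjusted p = 0.0649).

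Cell cycle genes changed in both directions. Of 34 genes of DNA replication and S phase 5 fell and 2 rose (20.6%, median -0.05). Of 29 genes of mitosis and cytokinesis 2 fell and 1 rose (10.3%), and over all genes 5.84% passed. The clamp loader gene Rfc5 fell by 0.45 (SE 0.09, adjusted p = 0.0232) and Rfc3 by 0.52 (SE 0.11, adjusted p = 0.0239), and the helicase gene Mcm7 fell by 0.66 (SE 0.17, adjusted p = 0.0377). The DNA primase gene Prim1 rose by 1.37 (SE 0.32, adjusted p = 0.0313) and the ligase gene Lig1 by 1.09 (SE 0.26, adjusted p = 0.0313). Cdc25b and Cdc25c, phosphatases that release mitotic entry, moved apart. Cdc25b rose by 1.14 (SE 0.27, adjusted p = 0.0313), and Cdc25c fell by 1.03 (SE 0.26, adjusted p = 0.0355). The spindle checkpoint gene Mad2l1 fell by 1.05 (SE 0.29, adjusted p = 0.0465). Of 16 genes of D cyclins, CDK inhibitors and pocket proteins 1 rose and 0 fell (6.25%). It was the transcription factor gene E2f3 (0.46, SE 0.12, adjusted p = 0.0408). Of 22 genes of DNA damage checkpoint and repair 2 rose and 1 fell (13.6%), among them Hus1, given above. Apex1, which cuts DNA at lost bases, fell by 0.58 (SE 0.15, adjusted p = 0.0386) and Parp1, which marks DNA breaks, rose by 1.0 (SE 0.27, adjusted p = 0.0437).

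Proliferation genes varied between the before NHD cultures. Top2a, a topoisomerase of dividing cells, had values of 5.98, 6.72, 7.43, 9.88, 6.33 and 8.40 in before NHD replicates 1 to 6, against 6.08, 5.92 and 5.83 in control cultures (1.51, SE 0.59, adjusted p = 0.131). Ccna2, cyclin A, had values of 6.23, 6.53, 7.94, 9.66, 6.93 and 8.72 before NHD, against 7.01, 7.02 and 7.14 with control plasma (0.61, SE 0.55, adjusted p = 0.507). Replicate 4 was highest in both genes, followed by replicates 6 and 3, and replicate 1 was lowest. These 2 genes did not stand for the mitosis list, whose mean difference was 0.83 in replicate 4, 0.27 in replicate 5, 0.21 in replicate 3, -0.02 in replicate 6, -0.55 in replicate 2 and -0.86 in replicate 1.

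Few genes of the stress lists passed, and over all genes 5.84% did. Of 28 genes of the unfolded protein and amino acid response 2 fell and 0 rose (7.14%, median -0.19). Dnajb9, a chaperone of the endoplasmic reticulum, had values of 9.48, 10.16 and 10.95 with plasma before NHD, against 11.08, 10.98 and 11.09 with control plasma (-0.91, SE 0.24, adjusted p = 0.0407). Dnajc3, another chaperone there, fell by 0.39 (SE 0.11, adjusted p = 0.0475). Replicate 5 held the highest before NHD value of Dnajb9, just under the controls. Of 25 translation initiation genes Eif2b1, of a complex that recharges the initiator factor, fell by 0.69 (SE 0.16, adjusted p = 0.0291). Eif2b5, of the same complex, rose by 0.64 (SE 0.16, adjusted p = 0.0355) and the helicase gene Eif4a2 by 0.84 (SE 0.21, adjusted p = 0.0379). Of 39 cytosolic ribosome genes, 35 proteasome genes and 32 genes of FoxO signalling, atrophy and autophagy 0 passed.

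Nfe2l2, the transcription factor NRF2 that drives antioxidant genes, had values of 11.33, 11.72 and 12.21 with plasma before NHD, against 12.30, 12.45 and 12.25 with control plasma (-0.58, SE 0.14, adjusted p = 0.034). Of 30 NRF2 and antioxidant genes it was the only one that fell, and Taldo1, of the pentose phosphate pathway, the only one that rose (0.80, SE 0.19, adjusted p = 0.0335). Nqo1, a target of NRF2 that detoxifies quinones, had values between 6.04 and 9.99 with plasma before NHD and between 7.34 and 7.55 with control plasma (1.06, SE 0.66, adjusted p = 0.331). Of 22 heat shock genes Hspb1 fell by 0.61 (SE 0.15, adjusted p = 0.0355) and Hspb2 rose by 0.69 (SE 0.16, adjusted p = 0.0312). The share that passed was 6.67% of the NRF2 and antioxidant list and 9.09% of the heat shock list, against 5.84% of all genes.

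Several lists concern solutes that uremic plasma is known to hold. Indole compounds can act on the aryl hydrocarbon receptor, whose best known target is Cyp1a1. Its values were 5.25, 5.57 and 5.79 with plasma before NHD, against 5.45, 4.80 and 5.02 with control plasma (0.47, SE 0.18, adjusted p = 0.122). Among 11 genes of this pathway 1 rose and 1 fell (18.2%, against 5.84% of all genes). Arnt2, a partner of the receptor's family, rose by 0.62 (SE 0.16, adjusted p = 0.0411), and Nfe2l2, which this list also holds, was the gene that fell. Of 18 transporters of drugs and uremic toxins 0 passed. Their largest difference was that of Abcb1b, a drug efflux pump, with values of 10.25, 9.62, 11.25, 8.04, 11.27 and 9.43 before NHD, against 11.91, 11.77 and 11.83 with control plasma (-1.86, SE 0.57, adjusted p = 0.0661). Its groups did not overlap, and replicates 3 and 5 lay nearest to the controls.

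Metallothioneins bind zinc and other metals and are read when these rise. Mt1 had values of 9.23, 9.21, 10.08, 11.69, 9.31 and 11.37 in before NHD replicates 1 to 6, against 9.15, 8.85 and 8.92 in control cultures (1.18, SE 0.46, adjusted p = 0.131). All 6 values lay above the controls, and those of replicates 4 and 6 were the highest. The zinc transporter gene Slc39a7 was the only one of 16 genes of this list that passed, and it fell by 0.71 (SE 0.15, adjusted p = 0.0254). Of 18 genes of FGF, klotho and mineral hormones Fgfr1, a receptor of the phosphate hormone FGF23, had values of 8.91, 9.81 and 9.95 with plasma before NHD, against 8.85, 9.19 and 8.88 with control plasma. It rose by 0.72 (SE 0.18, adjusted p = 0.035), with replicate 5 within the control range.

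Of 29 NF-kB and inflammation genes 2 passed (6.9%, against 5.84% of all genes), in opposite directions. Nfkbib, an inhibitor of NF-kB, rose by 0.53 (SE 0.11, adjusted p = 0.0257) and Birc2, an inhibitor of apoptosis, fell by 0.78 (SE 0.20, adjusted p = 0.037). Of 20 genes of the interleukin-6 family and of 22 genes of the glucocorticoid receptor and the clock 0 passed. Dusp1, a phosphatase that switches off MAP kinases, was the only one of 24 immediate early genes that passed, with values of 11.41, 11.71 and 12.22 with plasma before NHD, against 11.03, 11.18 and 10.97 with control plasma (0.70, SE 0.15, adjusted p = 0.0257).

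Interferon genes stood out in a single culture. Of 31 interferon and antigen presentation genes 0 passed, and the mean difference of the list was 1.06 in replicate 6, 0.33 in replicate 3 and between -0.36 and -0.05 in the others. Usp18, which limits interferon signalling, had values of 5.60, 5.64, 6.49, 5.81, 5.06 and 10.67 in before NHD replicates 1 to 6, against 4.69, 5.63 and 5.03 in control cultures. Mx2, an antiviral GTPase, reached 9.48 in replicate 6, against 5.23 to 5.40 in control cultures. The antiviral gene Oas1a reached 9.15 in replicate 6, against 5.59 to 5.73 in control cultures. Irf7, a transcription factor of the interferon response, reached 10.06 in replicate 6, against 6.74 to 7.22 in control cultures. In each of these 4 genes, which were chosen after their values were seen, replicate 6 was the highest of the 6 before NHD arrays.

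Among secreted regulators of muscle growth, myostatin and its inhibitor follistatin moved apart. Mstn, which restrains muscle growth, had values of 7.76, 7.71, 8.45, 8.16, 6.83 and 8.10 in before NHD replicates 1 to 6, against 6.57, 6.93 and 6.57 in control cultures (1.14, SE 0.25, adjusted p = 0.0273). Fst had values of 9.46, 8.92, 10.44, 7.99, 10.32 and 9.32 before NHD, against 11.07, 11.11 and 10.83 with control plasma (-1.59, SE 0.44, adjusted p = 0.0484). Fst fell in every before NHD culture, and Mstn lay above the controls in all but replicate 5. They were the only 2 of 28 genes of their list that passed (7.14%, against 5.84% of all genes). Gdf15, a stress cytokine of the same family, had values of 11.49, 12.19, 12.53, 9.17, 13.05 and 9.96 before NHD, against 12.82, 12.70 and 12.74 with control plasma (-1.36, SE 0.61, adjusted p = 0.182).

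Of 26 Wnt signalling genes 3 rose and 0 fell (11.5%, against 5.84% of all genes, median 0.21). Ctnnb1, beta-catenin, had values of 10.47, 11.19 and 11.47 with plasma before NHD, against 10.12, 10.53 and 10.22 with control plasma (0.84, SE 0.17, adjusted p = 0.0208). The Wnt coreceptor gene Lrp6 rose by 0.92 (SE 0.24, adjusted p = 0.0411), and Sfrp1, a secreted inhibitor of Wnt proteins, by 0.75 (SE 0.19, adjusted p = 0.0387). Of 28 collagen and matrix genes the laminin gene Lamc1 was the only one that passed, with a rise of 0.71 (SE 0.15, adjusted p = 0.0231). Col1a1, the main collagen of scar tissue, had values of 9.15, 8.57, 11.27, 8.48, 8.51 and 11.47 before NHD, against 9.35, 9.39 and 9.48 with control plasma, so that replicates 3 and 6 lay above and the other 4 below the controls. Of 18 TGF-beta and Smad genes 0 passed.

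Aqp7 and Scg2 also had a wide spread among the before NHD arrays. Aqp7, a water and glycerol channel, had values of 7.19, 10.10, 8.33, 6.73, 6.97 and 11.98 in before NHD replicates 1 to 6, against 7.84, 7.88 and 7.62 in control cultures (0.77, SE 0.97, adjusted p = 0.653). Scg2, a protein of secretory granules counted among the neural and glial markers, had values of 7.75, 7.31, 9.05, 5.32, 10.16 and 4.90 before NHD, against 10.52, 9.55 and 10.44 with control plasma (-2.75, SE 0.82, adjusted p = 0.0604). In Scg2 replicate 5 lay within the control range and replicates 4 and 6 lay far below it.

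Large gene families served as a comparison. Of 1105 olfactory receptor genes 13 were lower (1.18%) and 0 higher, and of 135 vomeronasal receptor genes 6 were lower (4.44%) and 0 higher. Over all genes 2.09% were lower. The median log2 difference was -0.21 for olfactory and -0.18 for vomeronasal receptor genes, against -0.05 over all genes. Of the olfactory receptor differences 107 of 1105 were above 0, and of the vomeronasal ones 29 of 135. Over all genes it was 6264 of 14506. The cause of this shift was not tested. Among 152 zinc finger genes 4 rose and 7 fell (7.24%), and among 315 solute carrier genes 6 rose and 6 fell (3.81%). Over all genes 5.84% passed. Slc4a3, an anion exchanger of heart, was among the solute carriers that rose (1.06, SE 0.23, adjusted p = 0.0257). Slc33a1, an acetyl-CoA carrier, was among those that fell (-0.70, SE 0.14, adjusted p = 0.0215). The mean difference of the olfactory receptors from the control mean ran from -0.51 to 0.03 over the before NHD arrays and from -0.25 to 0.26 over the control arrays. Of 43 taste and trace amine receptor genes 2 fell and 0 rose (4.65%, median -0.22). Of the smooth muscle, leukocyte, neural and erythroid markers, 12, 16, 10 and 6 genes, 0 passed in each list.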

How the data were processed

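Affymetrix arrays of 17 samples were used, of which 6 before NHD and 3 control plasma arrays were compared. Per the submitters' processing notes, the deposited log2 values were made by the authors with RMA, which corrects background, equalises the arrays' distributions and summarises probes. It would therefore take out a change that most genes have in common. No source used here gives the version of RMA or the definition of the probe sets. Where a title held 2 replicate numbers, as in 2 before NHD samples, the final number was taken.

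All 29214 probe sets of the 17 arrays were fitted in limma 3.58.1 under R 4.3.3 (lmFit, eBayes) as 4 groups without further terms, with 13 residual and 3.32 prior degrees of freedom. The contrast was before NHD minus control plasma, with two-sided tests, Benjamini-Hochberg adjustment over all probe sets and a threshold of 0.05. Probe sets were named from the platform annotation (15310 with 1 symbol, 323 with several, 13581 with none here), and 15279 symbols were updated through Entrez numbers with the NCBI RefSeq table of GRCr8. The probe set with the highest mean stood for its gene. Of the genes named, 6 had a further probe set, which differed in the same direction.

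Lists (47) and families (6) are described by counts and medians. Percentages beside counts are shares of measured list members that passed in either direction. Members, lists and tests were chosen with earlier results of these data known. Named genes are the largest and the most certain changes, the 5 members of each list with the lowest p, 6 hypertrophy genes, the widest spreads, the largest differences without overlap, and the histone family. Tnnt2, Actc1, Ptprc, Pecam1, Usp18, Mx2, Oas1a, Irf7, Top2a, Ccna2, Gdf15, Col1a1, Cpt1b, Mcm7, Mrpl19 and Idh2 lie outside that rule and were chosen after their values were seen. Promoters were searched on both strands for 10 motifs, the 4 given in the text and TNAAGGTCA (ERR), TTTCCCGC (E2F), TCACNCCAC (sterol) and those of NRF1, MEF2 and YY1, each in under 5% of promoters of genes that rose or fell. The procedure was tested on simulated data. The number of arrays limits the precision. Alternatives were other normalizations, filters, priors, weights, covariates and samples left out.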

Additional observations from a re-analysis of the deposited data

Results flagged for a closer look

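Dixon's test asked, for each named gene, whether the highest or lowest of the 6 before NHD arrays lay far from the other 5. Chance flags about 1 in 20 groups, and over all 14506 genes 914 stood out in this way (6.3%). Replicate 5 was the array in question in 9 named genes, and in each of them it lay on the side of the control cultures. It was high at 9.09 for H2ac25 (other before NHD values 7.29 to 7.80), at 9.75 for H2bc12 (7.71 to 8.33), at 9.99 for H2bc18 (8.25 to 8.84) and at 8.55 for Hist3h2ba (7.20 to 7.62). It was also high at 13.11 for Hspb1 (12.26 to 12.54) and at 7.36 for Wdr5b (6.56 to 6.80). It was low at 8.06 for Emc1 (8.83 to 9.28), at 8.91 for Fgfr1 (9.71 to 9.95) and at 7.56 for Men1 (8.33 to 8.78).

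Replicate 6 stood apart in 4 interferon genes, at 10.06 for Irf7 (6.75 to 7.82), at 9.48 for Mx2 (5.10 to 6.12), at 9.15 for Oas1a (5.41 to 6.398) and at 10.67 for Usp18 (5.06 to 6.49). These 4 genes were chosen after their values were seen, so their flags could not be set against the rate expected by chance. Replicate 4 stood apart for Myh7, at 13.20 (12.82 to 12.96).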

How the results depend on the processing

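The count of 1439 probe sets (58.4% higher) depended on how the spread was estimated. Array weights gave 6929 calls (3212 higher, 3717 lower, 46.4% higher), and group weights gave 2130 (1209 higher, 921 lower). Adding the array SD to the model gave 2 (2 higher, 0 lower). The fibroblast mean as a term, chosen after the data were seen, gave 2347 (1295 higher, 1052 lower). One probe set per gene gave 375 lower calls, and a minimum fold of 1.5 gave 335. The 9 arrays alone gave 0, 0 higher and 0 lower, and 0 with any of them left out except before NHD replicate 5, without which they gave 1626 (870 higher, 756 lower, an alternative chosen after the data were seen). Leaving out each of the 17 arrays gave 0 to 5101 calls, 0 to 2271 higher and 0 to 2830 lower. The lowest came without control replicate 1 or 3 and the highest without before NHD replicate 5 (44.5% higher). The replicate number as a block gave 3329 calls (1846 higher, 1483 lower). Same-numbered before NHD and control arrays had deviations correlated at 0.11, 0.135 and 0.088, so that the numbers were not taken as pairs. Of the 106 called genes named, 102 kept their call with the block, 106 with array weights and 0 with the SD term, and none reversed under any setting.

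Some genes that did not pass changed sign, most of them near 0, but with the SD term also Aqp7, Ccna2 and Oas1a, with main differences of 0.77, 0.61 and 0.73. With that term the differences were -0.20 for Aqp7, -0.0293 for Ccna2, -0.40 for Col1a1, 0.10 for Hbb, -0.0057 for Oas1a and -0.81 for Postn. With array weights they were -0.031 for Col1a1, 0.0301 for Pecam1 and -0.13 for Postn. With a second quantile normalization they were 0.0187 for Nppa, 0.0062 for Pecam1, -0.0073 for Postn and 0.0118 for Tnnt2. Pecam1 had 0.0458 with the block and 0.068 without the samples numbered 4. With each array left out the ranges were -0.21 to 0.39 for Col1a1, -0.62 to 0.34 for Edn1, -0.134 to 0.0117 for Hbb, -0.0377 to 0.0004 for Nppa, -0.164 to 0.068 for Pecam1, -0.42 to 0.37 for Postn and -0.0598 to 0.116 for Ptprc. The cause of these shifts was not tested.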
